A study of Mus musculus with 12 samples.

Results

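Ccr1, Ccr2, Ccrl2, Cx3cr1, Cxcr2 and Cxcr4 encode chemokine receptors that myeloid cells are known to carry. The genes were chosen by name, with earlier results of these data known. They are 6 of the 18193 genes that the array annotation names singly, and 11 of the 45101 probe sets of the array report on them. Gene expression was measured in mouse bone marrow cultures with Affymetrix arrays, in 4 groups of 3 arrays, and the record of the study describes 3 independent experiments per condition.

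All 4 groups started from marrow of 5-fluorouracil-treated F1 mice of the cross C57Bl/6Ly-Pep3b x C3H/HeJ, and all carried the NUP98-HOXD13 fusion, delivered by the ND13-GFP or ND13pac retrovirus. All were grown for 4 weeks with human IL-6 at 10 ng/ml, murine IL-3 at 6 ng/ml and murine stem cell factor at 100 ng/ml. They then spent 2 days on irradiated E86 cells that shed a second retrovirus, and protamine sulfate was present. The control group (MIY-ctrl) received a vector with yellow fluorescent protein only. The MEIS1-WT group received wild-type MEIS1, a homeodomain transcription factor, and the MEIS1-deltaHD group received MEIS1 without its homeodomain. The M33-MEIS1 group received a construct that the labels name but do not describe further. RNA came from sorted cells. The sources used here give neither the gate, nor the interval after infection, nor the age of the mice. Each comparison asked whether, and how far, a form of MEIS1 went with another level of a receptor in NUP98-HOXD13 cells.

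Chemokine receptors are seven-pass membrane proteins that couple to inhibitory G proteins and steer leukocytes along gradients of small secreted ligands. CCR1 and CCR2 draw monocytes to inflamed tissue, and CCR2 is needed for monocytes to leave the marrow. CXCR2 drives neutrophil release, CX3CR1 marks patrolling monocytes and macrophages, and CXCR4 holds blood-forming cells in the marrow through CXCL12. CCRL2 is an atypical receptor that binds chemerin and does not signal in the classical way.

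By their brightest probe sets, Ccr1 and Ccr2 had their highest signals in control cultures and their lowest with MEIS1-WT. Signals were intermediate with M33-MEIS1 and then MEIS1-deltaHD. Against control, Ccr1 was 10.4-fold lower with MEIS1-WT and Ccr2 was 6.33-fold lower. Ccrl2 was lower with each of the 3 constructs, by 2.38-fold to 3.11-fold. Cxcr4 was the receptor that passed in the other direction, 1.60-fold higher with M33-MEIS1. Cx3cr1 and Cxcr2 had dim probe sets, and no difference in either held up against the spread of the arrays, apart from a marginal one for Cx3cr1 with MEIS1-WT.

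A difference passed when its adjusted p was below 0.05 in limma's moderated test, with Benjamini-Hochberg adjustment over all 19990 genes and unnamed probe sets tested. Against control, 4 of the 6 receptors passed as lower with MEIS1-WT, and 0 as higher, where 19.4% of everything tested passed as lower and 13.3% as higher. With MEIS1-deltaHD 3 of 6 passed as lower and 0 as higher, against backgrounds of 22.7% and 13.8%. With M33-MEIS1 3 passed as lower and 1 as higher, against backgrounds of 18.3% and 12.4%. Between constructs, 2 of 6 were lower with MEIS1-WT than with MEIS1-deltaHD, where 2.83% of everything passed as lower. With M33-MEIS1, 2 of 6 were higher than with MEIS1-deltaHD, against 0.67%, and 2 of 6 were higher than with MEIS1-WT, against 4.11%. The median log2 difference of the 6 receptors from control was -0.87, -0.57 and -0.31 for the constructs in the order MEIS1-WT, MEIS1-deltaHD, M33-MEIS1, and the median of everything tested was -0.12, -0.17 and -0.13. The 3 comparisons with control share the same 3 control arrays, so their differences are not independent of each other. Because the receptors were chosen with earlier results of these data known, their counts beside these shares are a description.

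Ccr1 and Ccr2 lie close together in a block of chemokine receptor genes on chromosome 9. Their promoter windows are printed because the brightest probe sets of both genes followed the same order over the 4 groups. The Cxcr4 window is printed as that of the receptor that passed in the other direction. Each sequence comes from RefSeq on GRCm38.p6, runs from 250 bases before the annotated start of the gene to 50 after it, and is written 5′ to 3′ on the strand of the gene. Ccr1 is at chr9:123968643-123968942 on the minus strand, Ccr2 at chr9:124101933-124102232 on the plus strand and Cxcr4 at chr1:128592250-128592549 on the minus strand. Capitals mark matches to the motifs listed after the sequences.
Ccr1: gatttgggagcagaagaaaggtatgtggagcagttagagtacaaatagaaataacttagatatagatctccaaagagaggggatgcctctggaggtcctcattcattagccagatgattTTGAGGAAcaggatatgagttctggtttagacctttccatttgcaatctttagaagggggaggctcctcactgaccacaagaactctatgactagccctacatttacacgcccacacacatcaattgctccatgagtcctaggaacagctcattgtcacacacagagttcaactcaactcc
Ccr2: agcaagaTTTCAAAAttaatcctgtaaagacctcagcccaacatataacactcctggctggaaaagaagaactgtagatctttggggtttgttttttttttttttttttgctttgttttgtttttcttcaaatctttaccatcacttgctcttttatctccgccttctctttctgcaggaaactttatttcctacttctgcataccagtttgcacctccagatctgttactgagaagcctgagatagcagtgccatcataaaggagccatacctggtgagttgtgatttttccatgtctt
Cxcr4: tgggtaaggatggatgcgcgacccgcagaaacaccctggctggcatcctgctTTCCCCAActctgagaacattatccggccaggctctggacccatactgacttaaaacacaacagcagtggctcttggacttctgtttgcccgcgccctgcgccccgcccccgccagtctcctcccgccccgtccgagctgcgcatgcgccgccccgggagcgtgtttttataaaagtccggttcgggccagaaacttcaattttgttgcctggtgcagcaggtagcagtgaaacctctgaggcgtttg

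Both strands were searched for 6 motifs. They were TGACAG for MEIS proteins, TGATTNAT for HOX with PBX, GAGGAA for PU.1 and other ETS factors, TTNNGNAA for C/EBP proteins, GAAA repeated after any 2 bases for IRF proteins and TTCNNNGAA for STAT proteins. Over all 32851 promoter windows of the RefSeq table, 19.2% held the MEIS letters, 3.2% the HOX-PBX letters, 28.3% the ETS letters, 40.7% the C/EBP letters, 3.4% the IRF letters and 8.3% the STAT letters. The Ccr1 window held TTGAGGAA, a C/EBP match from base -131 whose last bases, from -129, are also an ETS match, so the 2 matches overlap. The Ccr2 window held a C/EBP match on the minus strand, TTTCAAAA from base -243. The Cxcr4 window held a C/EBP match on the minus strand, TTCCCCAA from base -198. In the Cxcr2 window the ETS letters stood 2 times on the minus strand, from bases -81 and 6. No motif stood in the Cx3cr1 window or in the 3 windows listed for Ccrl2. The letters TGACAG and TGATTNAT were in none of these windows for the 6 receptors. A match of such short letters is a description of the window and not a binding site.

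Ccr1 encodes a receptor for CCL3, CCL5, CCL6, CCL7 and CCL9 on monocytes and granulocytes. Its brighter probe set, 1419609_at, read 917, 1065 and 921 on the 3 control arrays. It read 102, 72.9 and 103 with MEIS1-WT. It read 242, 257 and 299 with MEIS1-deltaHD, and 443, 449 and 492 with M33-MEIS1. Every control array lay above every array with a construct, and no pair of the 4 groups overlapped. The group means were 968 ± 84.2, 92.7 ± 17.1, 266 ± 29.4 and 461 ± 26.7 (SD, n = 3), in the order control, MEIS1-WT, MEIS1-deltaHD and M33-MEIS1. These and all other signals are in the arbitrary units of the array software. Signals of different probe sets are not compared, but they are summed over gene lists below, where bright probe sets weigh most.

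On the log2(signal + 16) scale the Ccr1 difference from control was -3.19 (standard error, SE, 0.11) with MEIS1-WT, adjusted p = 4.41e-17 by limma. For MEIS1-deltaHD it was -1.80 (adjusted p = 3.43e-12), and for M33-MEIS1 it was -1.04 (adjusted p = 5.52e-08), with the same SE. Of the 19990 tested, 57 (0.285%) had a difference as low or lower with MEIS1-WT. For MEIS1-deltaHD the share was 0.91%, and for M33-MEIS1 it was 2.19%. All neighbours in the order of the 4 groups differed: M33-MEIS1 was 1.73-fold above MEIS1-deltaHD (log2 0.76, adjusted p = 0.000261) and MEIS1-deltaHD was 2.87-fold above MEIS1-WT (adjusted p = 2.72e-09). M33-MEIS1 exceeded MEIS1-WT by 4.98-fold (log2 2.15, adjusted p = 5.8e-13), and 29 of the 19990 (0.145%) had a difference as high or higher. The step between M33-MEIS1 and MEIS1-deltaHD did not pass when limma was run without its intensity trend (adjusted p = 0.0567).

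Ccr2 encodes the receptor for CCL2, CCL7 and CCL12, the ligands that call classical monocytes out of the marrow. Its brightest probe set, 1421186_at, read 688, 791 and 945 on the control arrays. It read 144, 119 and 119 with MEIS1-WT. It read 282, 329 and 326 with MEIS1-deltaHD, and 527, 512 and 446 with M33-MEIS1. As for Ccr1, no pair of groups overlapped and the order of the groups was the same. The means were 808 ± 129, 128 ± 14.4, 312 ± 26.1 and 495 ± 43.0 (SD, n = 3) in the same order of groups.

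The Ccr2 difference from control was -2.51 (SE 0.11) on the log2 scale with MEIS1-WT, adjusted p = 3.42e-15 by limma. For MEIS1-deltaHD it was -1.32 (adjusted p = 6.86e-10), and for M33-MEIS1 it was -0.68 (adjusted p = 2.24e-05). The last call was lost when each array was scaled to a common median (log2 -0.33, adjusted p = 0.0765). MEIS1-deltaHD stood 2.45-fold above MEIS1-WT (adjusted p = 2.65e-08), and M33-MEIS1 stood 3.88-fold above MEIS1-WT (adjusted p = 8.67e-12). M33-MEIS1 stood 1.58-fold above MEIS1-deltaHD (log2 0.64, adjusted p = 0.00203). That step did not pass with median scaling (0.50, adjusted p = 0.13), with the mean of all 4 probe sets (0.35, adjusted p = 0.236) or without the intensity trend (adjusted p = 0.107).

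Ccrl2 encodes the atypical chemerin-binding receptor. It read 74.5, 100.3 and 75.2 on the control arrays. It read 24.6, 30.4 and 25.5 with MEIS1-WT, 32.2, 33.2 and 32.2 with MEIS1-deltaHD, and 28.2, 22.7 and 54.0 with M33-MEIS1. Every control array lay above every other array. The MEIS1-WT arrays lay below those of MEIS1-deltaHD, and the M33-MEIS1 arrays ranged from below both groups to above both. In the order of groups used above, the means were 83.4 ± 14.7, 26.8 ± 3.16, 32.5 ± 0.584 and 35.0 ± 16.7 (SD, n = 3).

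On the log2 scale Ccrl2 was lower than control by similar amounts in the 3 comparisons, at -1.21, -1.02 and -1.0 (SE 0.18), with adjusted p = 1.33e-05, 9.89e-05 and 0.000168 in the same order of constructs. Among the constructs no step passed. MEIS1-WT minus MEIS1-deltaHD was -0.18 with a 95% interval of -0.57 to 0.20 (adjusted p = 0.717). M33-MEIS1 minus MEIS1-deltaHD was 0.02 with an interval of -0.36 to 0.40 (adjusted p = 0.986), and M33-MEIS1 minus MEIS1-WT was 0.21 with an interval of -0.18 to 0.59 (adjusted p = 0.648). The array has 1 probe set for Ccrl2, of the type that detects more than 1 transcript of a gene.

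**Figure D1:**
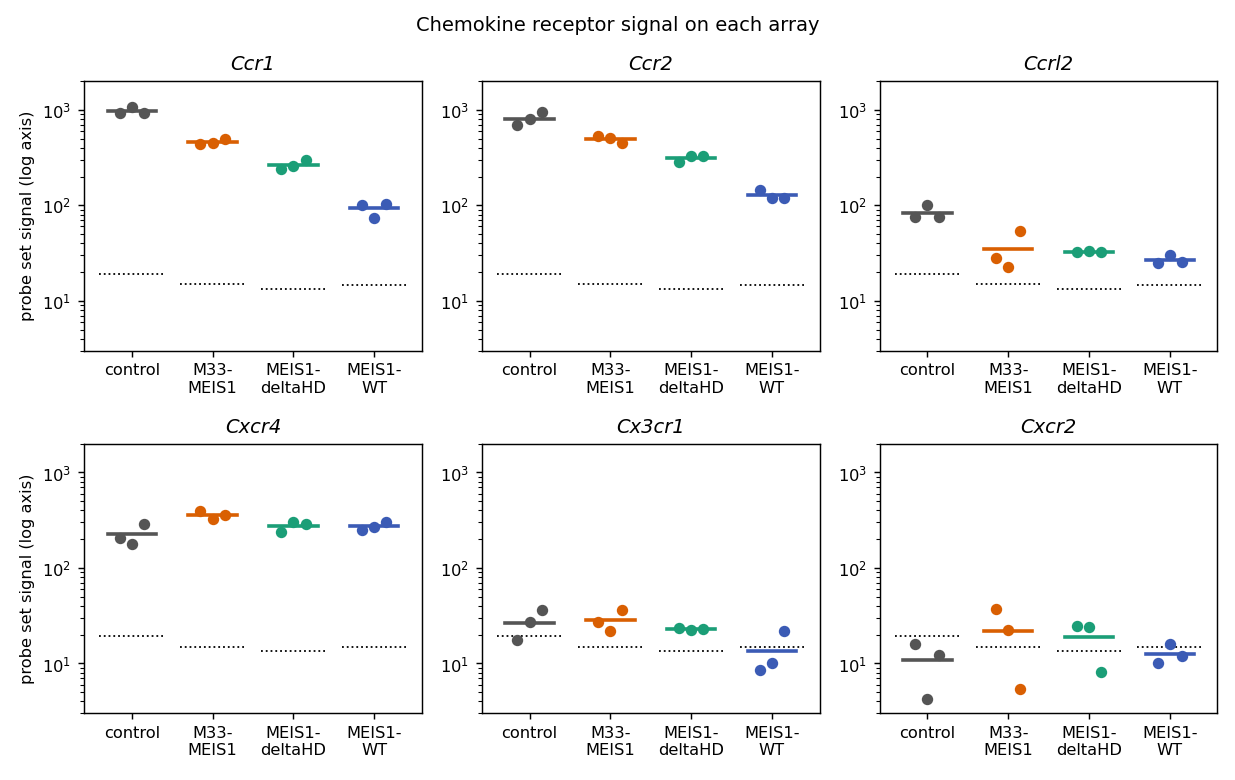
Signal of the brightest probe set of each of the 6 receptors on the 12 arrays, on a log axis, with 1 point per array, a bar for the mean of each group and a dotted line for the mean of the array medians. Ccr1 runs from 1065 in control down to 72.9 with MEIS1-WT without overlap of the groups, while the Cxcr4 points of all 12 arrays lie between 179 and 395.

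Cx3cr1 encodes the fractalkine receptor. Its brighter probe set, 1450020_at, read 17.5, 26.9 and 35.9 on the control arrays and 8.51, 10.1 and 22.1 with MEIS1-WT. It read 23.5, 22.5 and 23.1 with MEIS1-deltaHD and 26.9, 21.7 and 36.3 with M33-MEIS1. All groups except the pair of MEIS1-WT and MEIS1-deltaHD overlapped, and the highest MEIS1-WT array lay above the lowest control array. These signals are dim: 11 of 12 arrays had the probe set above the 40th percentile of the array, the level used as the filter on low signals. The MEIS1-WT difference from control was -0.54 on the log2 scale (SE 0.21, adjusted p = 0.0495 by limma). That call was lost in 17 of 25 alternative settings. Over all 25 the adjusted p ranged from 0.0125 to 0.259. Among the 17 were the fits without control replicate 2 (adjusted p = 0.102) or control replicate 3 (0.213). So were those without MEIS1-WT replicate 1 (0.182) or MEIS1-WT replicate 2 (0.15). The differences of MEIS1-deltaHD and M33-MEIS1 from control were -0.11 (95% interval -0.54 to 0.32) and 0.06 (-0.37 to 0.49). M33-MEIS1 minus MEIS1-WT was 0.60 (adjusted p = 0.0971). It passed without MEIS1-WT replicate 3 (0.79, adjusted p = 0.0303) and with the mean of both probe sets (0.69, adjusted p = 0.0252).

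Cxcr2 encodes the receptor for the neutrophil-attracting chemokines CXCL1, CXCL2, CXCL3, CXCL5 and PPBP. It read 16.1, 4.20 and 12.3 on the control arrays and 10.2, 15.9 and 12.02 with MEIS1-WT. It read 24.7, 24.0 and 8.08 with MEIS1-deltaHD and 37.4, 22.3 and 5.39 with M33-MEIS1. All 4 groups overlapped, and the widest spread was within M33-MEIS1. The probe set lay above the 40th percentile on 9 of 12 arrays, so the signal of this gene was close to the lower end of the array's range. The log2 differences from control were 0.12 (95% interval -0.45 to 0.69), 0.36 (-0.21 to 0.93) and 0.42 (-0.15 to 0.99), in the order of constructs used above. None passed (adjusted p = 0.792, 0.323 and 0.275), although the last did without M33-MEIS1 replicate 3 (0.78, adjusted p = 0.0277).

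Cxcr4 encodes the CXCL12 receptor of stem, progenitor and most mature blood cells. It read 204, 179 and 292 on the control arrays and 252, 269 and 300.1 with MEIS1-WT. It read 239, 303 and 291 with MEIS1-deltaHD and 395, 322 and 361 with M33-MEIS1. All 3 M33-MEIS1 arrays lay above the other 9 arrays, and control replicate 3 lay inside the range of MEIS1-WT and of MEIS1-deltaHD. The means were 225 ± 59.0, 274 ± 24.5, 278 ± 33.9 and 359 ± 36.4 (SD, n = 3) in the same order of groups.

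Cxcr4 rose with M33-MEIS1 by 0.66 on the log2 scale (SE 0.13, adjusted p = 0.000297), and 3.06% of everything tested had a difference as high or higher. It passed in all 25 alternative settings, at 0.52 to 0.99. The difference of MEIS1-WT from control was 0.29 (95% interval 0.02 to 0.55, adjusted p = 0.0901) and that of MEIS1-deltaHD was 0.31 (0.04 to 0.57, adjusted p = 0.0651). These intervals are not adjusted for the number of genes. Without control replicate 3 both passed, at 0.48 (adjusted p = 0.00202) and 0.50 (adjusted p = 0.00133), and with median scaling both passed at 0.63 and 0.78. Without MEIS1-deltaHD replicate 1 the MEIS1-deltaHD difference also passed (0.41, adjusted p = 0.032). M33-MEIS1 minus MEIS1-deltaHD was 0.35 (adjusted p = 0.284), and M33-MEIS1 minus MEIS1-WT was 0.37 (adjusted p = 0.0948). The latter passed without control replicate 2 (adjusted p = 0.0443) and without control replicate 3 (adjusted p = 0.0242). MEIS1-WT and MEIS1-deltaHD differed by -0.02 with an interval of -0.28 to 0.25 (adjusted p = 0.972).

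**Figure D2:**
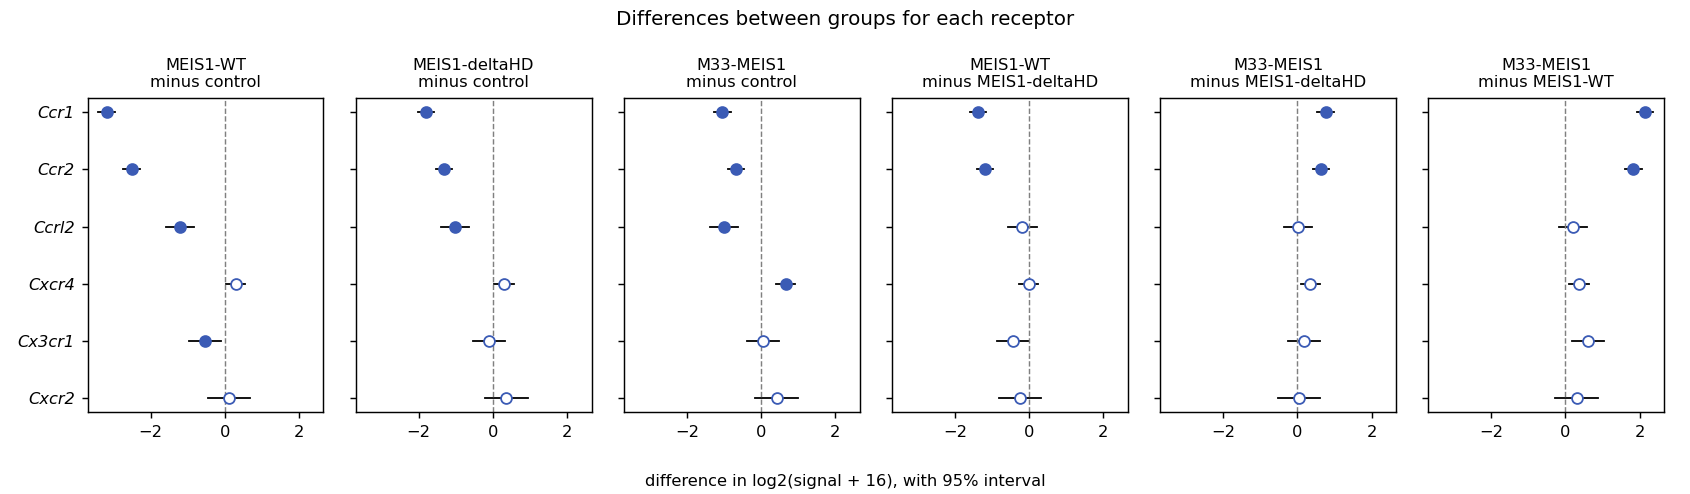
Log2 difference of each receptor in the 6 comparisons, 1 panel each, with the 95% interval of the limma fit, filled where the adjusted p was below 0.05 and hollow otherwise. Against control, Ccr1 and Ccr2 are separated by construct, from -3.19 to -1.04 and from -2.51 to -0.68, the 3 Ccrl2 values lie between -1.21 and -1.0, and Cxcr4 with M33-MEIS1 lies at 0.66.

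Ccr1, Ccr2 and Cx3cr1 had more than 1 probe set each, so their differences could be set beside each other. The dimmer Ccr1 probe set, 1419610_at, read 135 to 169 in control and 15.4 to 23.7 with MEIS1-WT. The MEIS1-deltaHD arrays read 24.8 to 35.3 and the M33-MEIS1 arrays 40.6 to 79.5. Tested singly it differed from control by -2.33, -1.90 and -1.14 on the log2 scale, and all 3 passed. Its steps between MEIS1-WT and MEIS1-deltaHD (-0.43, adjusted p = 0.22) and between M33-MEIS1 and MEIS1-deltaHD (0.76, adjusted p = 0.0534) did not.

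Of the 4 Ccr2 probe sets, 1421187_at followed 1421186_at closely, at -2.46, -1.16 and -0.70 from control, and its step between M33-MEIS1 and MEIS1-deltaHD passed (0.46, adjusted p = 0.0335). Probe set 1460067_at was lower with all constructs (-2.36, -2.07 and -1.61), without a step that passed between MEIS1-WT and MEIS1-deltaHD (-0.29, adjusted p = 0.497). Probe set 1421188_at stood apart. Its 3 control arrays read 62.4, 125 and 128, its MEIS1-deltaHD arrays 69.9 to 88.8 and its M33-MEIS1 arrays 55.2 to 80.7, so that both groups overlapped with control. It passed with MEIS1-WT (-1.14, adjusted p = 3.26e-05) and narrowly with M33-MEIS1 (-0.49, adjusted p = 0.0456), and not with MEIS1-deltaHD (-0.34, adjusted p = 0.16). Here M33-MEIS1 minus MEIS1-deltaHD was -0.16 (95% interval -0.53 to 0.22), against 0.64 for the brightest probe set. The 4 probe sets thus shared the direction against control. The step between M33-MEIS1 and MEIS1-deltaHD differed among them in size. For 1421188_at its estimate also had the other sign, with an interval that includes 0.

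The second Cx3cr1 probe set, 1450019_at, was above the 40th percentile on 5 arrays, and its differences from control of -0.39, 0.07 and 0.38 did not pass. Of all 11 probe sets tested singly, 7, 6 and 7 passed as lower in the order of constructs used above, and in this test 17.8%, 20.8% and 17.1% of everything passed as lower.

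**Figure D3:**
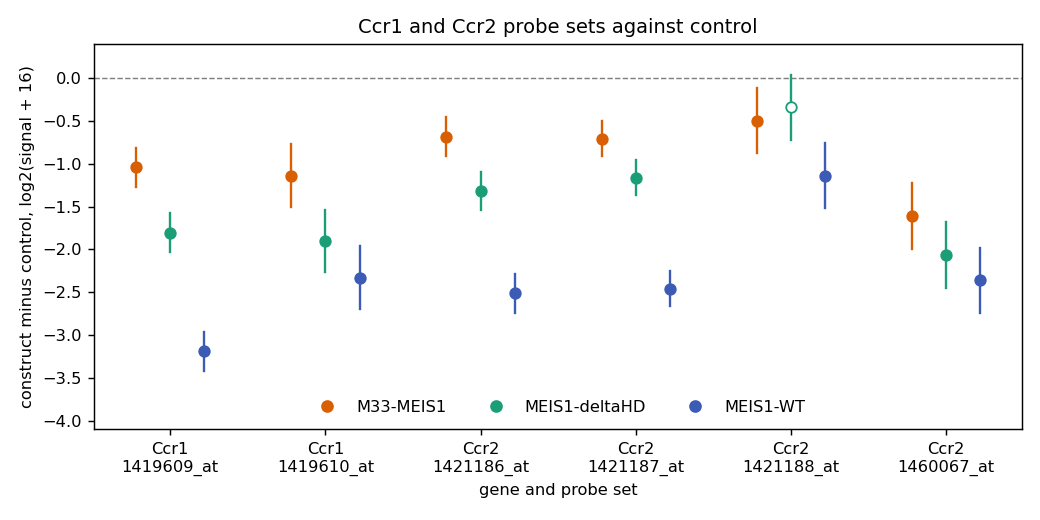
Log2 difference from control of the 2 Ccr1 and 4 Ccr2 probe sets tested singly, coloured by construct, with 95% intervals, filled where the adjusted p was below 0.05 and hollow otherwise. All 6 lie below 0 for every construct, and Ccr2 1421188_at shows the smallest differences of the 6, at -1.14, -0.34 and -0.49.

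These are bulk samples, in which fewer cells of a type and less RNA per cell cannot be told apart. Most marker genes of monocytes and macrophages were lower with the constructs, as Ccr1 and Ccr2 were. The list held 14 genes, 12 were measured, and 11 of the 12 were lower than control with each construct, with medians of -2.25, -1.63 and -1.23 on the log2 scale. Of everything tested 19.4%, 22.7% and 18.3% passed as lower, with medians of -0.12, -0.17 and -0.13. With median scaling 11, 10 and 10 of the list were lower. Their summed signal was 12539.6 to 14119 in control and 755 to 913 with MEIS1-WT. The sum was 2675 to 2870.3 with MEIS1-deltaHD and 4027 to 4622 with M33-MEIS1, so the groups did not overlap and stood in the order seen for Ccr1 and Ccr2. Csf1r, the receptor for the macrophage growth factor, had mean signals of 1590.4, 32.3, 425 and 634 in the order control, MEIS1-WT, MEIS1-deltaHD, M33-MEIS1. Lyz2, the lysozyme of macrophages and granulocytes, had means of 5391, 112, 629.8 and 1345 in the same order. Nr4a1 and Irf8, also on the list, stood in other orders. Nr4a1 had means of 124, 89.0, 48.0 and 40.2 and did not pass with MEIS1-WT (adjusted p = 0.161 by limma). Its MEIS1-WT level was above that of MEIS1-deltaHD (0.71, adjusted p = 0.0192). Irf8 had means of 294, 63.8, 264 and 339 and passed against control only with MEIS1-WT. The part of these cells in the receptor values was not tested.

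The summed signals of neutrophil and of mast cell genes stood in other orders, while single genes of these lists differed among themselves. Neutrophil granule and surface genes summed to 15144 to 18172 in control and 9904 to 10279 with MEIS1-WT. They summed to 16284 to 17335 with MEIS1-deltaHD and 17152 to 20137 with M33-MEIS1. The brightest in control were Mpo, Mmp8 and Prtn3, with means of 6522, 3746 and 3525, so these genes weigh most in the sums. Of the 12 measured, 7 were lower with MEIS1-WT, 5 were higher and 3 lower with MEIS1-deltaHD, and 6 were higher and 3 lower with M33-MEIS1. The shares of everything tested that passed as higher were 13.3%, 13.8% and 12.4%, and those passing as lower were the 19.4%, 22.7% and 18.3% above. The 3 neutrophil genes lower with every construct were Mmp8, Lcn2 and Csf3r, named after their values were seen. Mmp8, a collagenase of neutrophil granules, had means of 3746, 180, 456 and 962 in the order control, MEIS1-WT, MEIS1-deltaHD, M33-MEIS1, the order seen for Ccr1 and Ccr2. Lcn2, the lipocalin of neutrophil granules, had means of 459, 76.6, 132 and 136, and Csf3r, the G-CSF receptor, 315, 113, 146 and 157. Elane, Ngp, Prtn3, S100a8 and S100a9 of the same list passed as higher with both MEIS1-deltaHD and M33-MEIS1. In the same order, means were 739, 757, 2174 and 1893 for Elane and 61.7, 38.7, 187 and 240 for Ngp. Those of S100a9 were 341, 136, 766 and 1044. Of the 5 measured genes of a dendritic cell list, Cd74 was lower with every construct, with means of 272, 27.3, 56.1 and 90.2. It encodes the MHC class II invariant chain of antigen-presenting cells. Other genes of that list did not share this pattern. Flt3 was higher with MEIS1-WT (0.997, adjusted p = 8.4e-07 by limma) and lower with the other constructs. Itgax passed as lower with MEIS1-deltaHD only, and H2-Ab1 and Zbtb46 passed with no construct. Mast cell and basophil genes summed to 3060.1 to 4012 in control and 2389.8 to 2518 with MEIS1-WT. They summed to 2524 to 2648 with MEIS1-deltaHD and 4296 to 4617 with M33-MEIS1. Of the 9 measured, 2 were higher and 6 lower with MEIS1-WT and with MEIS1-deltaHD, and 4 were higher and 2 lower with M33-MEIS1. With median scaling these counts were 2 and 3, 3 and 2, and 6 and 0. Mcpt8, a basophil protease, rose by 1.23 with M33-MEIS1 (adjusted p = 2.4e-11), while Gata2, a transcription factor of progenitors and mast cells, fell by 0.52. Of the genes that define T cells, B cells and fibroblasts, Cd3e had group means of 3.92 to 8.18, Cd79a of 4.26 to 9.55 and Col1a1 of 2.73 to 11.8. Other genes of these lists were brighter. Nkg7, a granule gene of killer lymphocytes, had means of 129.9 to 242 and was lower with MEIS1-WT (-0.73, adjusted p = 6.56e-06). Pdgfrb, a growth factor receptor of fibroblasts, was lower with every construct, with means of 315, 189, 162 and 139, and Thy1 had means of 106 to 117 and passed in none. The part of these cell types in the receptor values was not tested.

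With 3 arrays a group, their number sets the precision. The median signal of an array ran from 13.1 to 21.6, and log2 values of arrays within a group had correlations of 0.982 to 0.989 over everything tested. The median was 19.2 ± 2.19 in control and 13.4 to 14.9 in the construct groups (n = 3). Setting all arrays to a common median moved the median log2 difference of everything tested from control by 0.22, 0.30 and 0.22, and the share of passing genes that were higher went from 40.7% to 77.4% for MEIS1-WT, from 37.8% to 82.2% for MEIS1-deltaHD and from 40.3% to 80.7% for M33-MEIS1. With quantile normalization these shares were 51.1%, 49.7% and 50.7%. Between constructs, median scaling moved the share for MEIS1-WT over MEIS1-deltaHD from 46.2% to 23.4% and that for M33-MEIS1 over MEIS1-deltaHD from 94.4% to 80%. The probe set of Meis1 itself had means of 187, 141, 109.9 and 117 in the order control, MEIS1-WT, MEIS1-deltaHD, M33-MEIS1. Whether it lies within the introduced sequence is not known here, so it does not check the labels.

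Ligands of these receptors were measured in the same cultures. Of 19 ligand genes, 17 passed the filter on low signals. With MEIS1-WT 4 were higher and 7 lower than control, with MEIS1-deltaHD 1 was higher and 10 lower, and with M33-MEIS1 2 were higher and 5 lower. Of everything tested 13.3%, 13.8% and 12.4% were higher and 19.4%, 22.7% and 18.3% lower. The median over the 17 was -0.10, -0.58 and -0.11, beside -0.12, -0.17 and -0.13 for everything tested. For MEIS1-WT that median turned to 0.08 with quantile normalization and with median scaling, and for M33-MEIS1 to 0.22 with median scaling.

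The ligands of CCR1 moved in different directions with MEIS1-WT. Ccl6 fell by 3.94 on the log2 scale with MEIS1-WT (SE 0.11, adjusted p = 2.69e-18), from a mean of 840.1 to 39.8, and had means of 146 with MEIS1-deltaHD and 489 with M33-MEIS1. Its arrays read 767 to 888, 34.9 to 47.9, 145 to 147 and 408 to 588 in the order control, MEIS1-WT, MEIS1-deltaHD, M33-MEIS1, and no pair of groups overlapped. Ccl3, which encodes MIP-1 alpha, rose by 1.04 with MEIS1-WT (adjusted p = 1.02e-07), from 1667 to 3431. With MEIS1-deltaHD and M33-MEIS1 Ccl3 had differences of 0.20 and 0.08 that did not pass (adjusted p = 0.179 and 0.658). Ccl9 fell by 1.03 with MEIS1-WT, where its mean was 1049.9 against 2153 in control, and by 0.26 with MEIS1-deltaHD (adjusted p = 0.0289). It was at 0.03 with M33-MEIS1. Ccl5 was dim, with means of 27.0, 6.61, 1.26 and 22.1 in the same order of groups. It was lower with MEIS1-WT (-0.89, adjusted p = 0.0334 by limma) and with MEIS1-deltaHD (-1.25, adjusted p = 0.00308). Its M33-MEIS1 difference of -0.26 did not pass (adjusted p = 0.591). Ccl7 is given below with the ligands of CCR2.

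For CCR2, the MCP-1 gene Ccl2 was lower than control with every construct. It read 113 to 378 on the control arrays, a wide spread. It read 16.2 to 20.2 with MEIS1-WT, 5.73 to 21.3 with MEIS1-deltaHD and 11.5 to 12.5 with M33-MEIS1. Its differences from control were -2.58, -2.81 and -2.86 (SE 0.27), and all passed. Ccl12 read 41.4 to 73.7 in control and at most 5.42 on the other 9 arrays. Its differences of -1.87, -1.98 and -1.87 all passed, as did those of Ccl7 at -1.30, -1.32 and -1.40. Ccl12 lay above the 40th percentile only on the 3 control arrays, and Ccl7 on these and 1 other. Both passed the filter through control and had to differ from it, so these differences are a description, although the counts of lower ligands above include them.

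For CXCR2, Cxcl1 was lower with MEIS1-WT (-1.30) and MEIS1-deltaHD (-0.98), and its M33-MEIS1 difference was -0.48 (adjusted p = 0.109). Cxcl2 was lower with MEIS1-deltaHD (-1.34, adjusted p = 0.000751) and M33-MEIS1 (-0.83, adjusted p = 0.0337), at 0.26 with MEIS1-WT (adjusted p = 0.537). For CXCR4, the classical ligand gene Cxcl12 did not pass the filter, with group means of 5.09 to 6.94. Mif, which encodes a second ligand of CXCR4, was higher with all constructs, at 0.76, 0.64 and 0.66, from a mean of 2812 in control to 4376 to 4770. Pf4, a platelet chemokine of megakaryocytes, rose by 1.36 with MEIS1-WT and by 0.63 with M33-MEIS1. Cx3cl1, the fractalkine gene, and Rarres2, the chemerin gene, had no difference from control that passed.

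**Figure D4:**
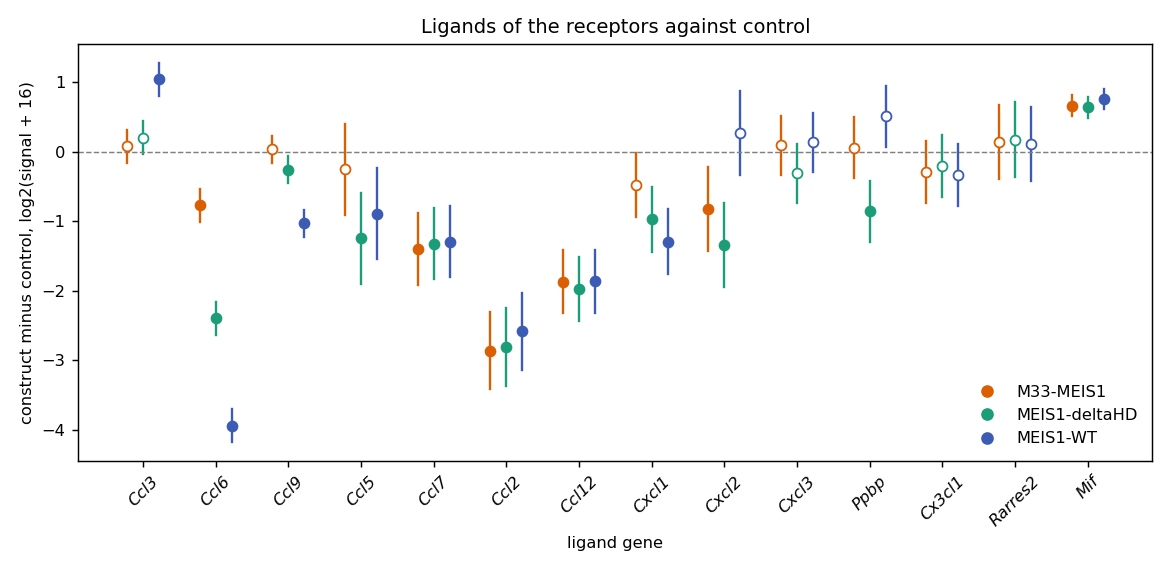
Log2 difference from control of 14 ligand genes for the 3 constructs, with 95% intervals, filled where the adjusted p was below 0.05 and hollow otherwise. Ccl6 is spread from -3.94 to -0.77 over the constructs, Ccl2 lies between -2.86 and -2.58 with each of them, and Ccl3 lies at 1.04 with MEIS1-WT.

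The other chemokine receptors were mostly too dim to measure. Of 20 listed, 18 were on the array and 10 passed the filter. With MEIS1-WT and with M33-MEIS1 0 of the 10 passed limma's test, and 1 and 0 had an unadjusted p under 0.05. Of everything tested, 13.3% and 12.4% passed as higher in these comparisons, and 19.4% and 18.3% as lower. With MEIS1-deltaHD Ackr4, a scavenging receptor, and Ccr9, a homing receptor of gut lymphocytes, were lower (-0.59 and -0.68). These were 2 of 10, beside 22.7% of everything tested, and neither passed under quantile normalization or median scaling.

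Receptors for other attractants of myeloid cells were listed as well. Of 14 listed 9 were measured. In the order of constructs used above, 7, 8 and 6 of them were lower than control and 0 higher, with medians of -0.94, -0.63 and -0.58. Of everything tested 19.4%, 22.7% and 18.3% were lower, with medians of -0.12, -0.17 and -0.13. With median scaling these counts were 6, 4 and 3. Fpr2, a formyl peptide receptor, read 156 to 213 in control and 9.08 to 18.2 with MEIS1-WT. It read 14.9 to 20.8 with MEIS1-deltaHD and 23.3 to 41.9 with M33-MEIS1, so that every control array lay above the other 9. Its differences were -2.82, -2.59 and -2.09 (SE 0.18, adjusted p = 7.32e-12, 4.52e-11 and 2.59e-09). C3ar1, the receptor for complement C3a, was lower with every construct, at -2.15, -1.77 and -1.05. Its step between MEIS1-WT and MEIS1-deltaHD of -0.38 did not pass (adjusted p = 0.153). Ltb4r1, a leukotriene B4 receptor, was at -1.56, -1.40 and -1.20, and Cysltr1, a cysteinyl leukotriene receptor, at -1.64, -1.36 and -0.74.

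Of 28 listed genes that carry the receptor signal inside the cell 25 were measured, and the counts of higher and lower were 1 and 11 with MEIS1-WT, 4 and 11 with MEIS1-deltaHD, and 1 and 7 with M33-MEIS1. The shares of everything tested were 13.3% and 19.4%, 13.8% and 22.7%, and 12.4% and 18.3%. These counts depended on the scaling: with median scaling they were 7 and 6, 11 and 2, and 8 and 1. Pik3r5, a regulatory subunit of PI3-kinase gamma, was at -1.28 (adjusted p = 2e-05) with MEIS1-WT, -0.51 (adjusted p = 0.0537) with MEIS1-deltaHD and -0.06 (adjusted p = 0.869) with M33-MEIS1. Pik3r6, the other regulatory subunit of that kinase, was lower than control with every construct, at -1.24, -0.98 and -0.75. Prex1, an exchange factor for Rac, was at -1.08, -0.62 and -0.59, and Gnai2, the main inhibitory G protein subunit of leukocytes, at -0.39, -0.38 and -0.32. Rac2, the Rac protein of blood cells, had group means of 1417 to 1525 and passed in none of these.

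On chromosome 9 the RefSeq order is Lztfl1, Ccr9, Fyco1, Cxcr6, Xcr1, Ccr1, Ccr1l1, Ccr3 and Ccr2, while Ccrl2 lies elsewhere beside Ltf, and Cx3cr1 elsewhere beside Ccr8. Of the neighbours, Ccr1l1, Ccr3, Cxcr6 and Xcr1 did not pass the filter. Lztfl1, which encodes a protein of cilia traffic, was lower than control with every construct (-0.71, -1.47 and -1.37). It had means of 435, 262, 146 and 158 in the order control, MEIS1-WT, MEIS1-deltaHD, M33-MEIS1. Its lowest mean was thus with MEIS1-deltaHD, whereas those of Ccr1 and Ccr2 were with MEIS1-WT. Fyco1, an autophagosome transport gene, was at -0.75, -0.85 and -0.73.

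The genes whose pattern over the 12 arrays lay nearest to each receptor were found by the root-mean-square difference of log2 values, after each gene was centred on its own mean. For Ccr1, whose own spread around its mean was 1.17, they were Clec7a (0.15), F10 (0.15), Ahnak (0.20) and Lgals3 (0.20). Clec7a encodes the beta-glucan receptor dectin-1 and had means of 300.5, 15.4, 66.1 and 111 in the order of groups used above. For Ccr2, with a spread of 0.94, they were Pld4 (0.12), Tpd52 (0.17), Ccn3 (0.18) and Itgam (0.20). Itgam, the CD11b integrin chain of myeloid cells, had means of 226, 24.3, 69.8 and 103.

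For Ccrl2, with a spread of 0.52, the nearest were Anxa4 (0.15), Slc7a11 (0.18), Itpr2 (0.18) and Pim1 (0.18). Anxa4 had means of 319 in control and 134 to 158 in the construct groups, a pattern of control against the rest. For Cxcr4, with a spread of 0.29, they were P4ha1 (0.13), Top2a (0.14), Sgo2a (0.14) and Fam111a (0.14). Top2a, a topoisomerase of dividing cells, had means of 1448, 1726, 1891 and 2128. For Cx3cr1, with a spread of 0.32, they were Nostrin (0.12), Trim45 (0.14), Pqlc3 (0.16) and Mgam (0.17). For Cxcr2, with a spread of 0.40, the nearest gene was Cox7a1 at 0.24. Receptors and these genes share the same 12 arrays, so the likeness is a description.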

How the data were processed

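The values deposited by the authors are the array intensity of each probe set on a linear scale, made with GCOS 1.2 per the submitters' processing notes. On every array the mean of the values, trimmed by 2% at each end, was 100, so the arrays had been scaled alike. The settings for background and probe summary, not given in the sources used here, could change these values.

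The 64 control probe sets were left out. Probe sets above the array's 40th percentile on 3 or more of the 12 arrays were kept, 31726 in all, including all 11 of the receptors. Of the probe sets, 34945 carried 1 symbol, 932 several and 9160 none. A gene with several kept probe sets was represented by its brightest on average, which gave 19990 tested features. The signal was turned into log2(signal + 16), which shrinks the differences of dim genes.

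A linear model of the 4 groups over the 12 arrays was fitted in R 4.3.3 with limma 3.58.1 (eBayes with an intensity trend, 8 residual degrees of freedom), with two-sided p-values adjusted by Benjamini-Hochberg within each of 6 comparisons. The code was tested on simulated data. With 3 arrays a side, the smallest two-sided p of an exact rank test is 0.1. Each p-value sets a difference between groups against the spread of these arrays within groups, which limma moderates over all tested features. Same-numbered arrays did not deviate together (correlations of -0.038 to 0.025 over 18 pairs), so the numbers were not used as pairs.

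The receptors and gene lists were chosen with earlier results of these data known. The genes named are the receptors, up to 4 members with the largest passing difference from control in a list, and the 4 genes nearest to each receptor; others named were chosen after their values were seen. Alternatives covered the added constant, the filter, the scaling, the choice of probe set, the arrays and groups in the fit, array weights, the replicate block and the trend.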

Additional observations from a re-analysis of the deposited data

How the results depend on the processing

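The 36 receptor differences and 6 counts were recomputed under 13 other settings and without each of the 12 arrays in turn. Of 888 values for single receptors, 853 stayed on their side of the threshold, 22 lost the threshold, 13 gained it, and 0 of those that had passed changed sign. Of the 853, 20 that passed neither before nor after changed sign. The count of receptors higher with M33-MEIS1 than with MEIS1-deltaHD, 2, was 1 with median scaling, 1 with the mean of all probe sets and 0 without the intensity trend, where limma's adjusted p was 0.0567 for Ccr1 and 0.107 for Ccr2. Without each array in turn, 3 to 4 receptors passed for MEIS1-WT and for MEIS1-deltaHD against control and 4 to 5 for M33-MEIS1 against control. Between constructs the counts were 2 to 2 for MEIS1-WT against MEIS1-deltaHD, 2 to 2 for M33-MEIS1 against MEIS1-deltaHD and 2 to 3 for M33-MEIS1 against MEIS1-WT. With the replicate block, 4 receptors passed in each comparison with control and 2 in each between constructs; Cxcr4 with MEIS1-deltaHD gained the threshold (0.31, adjusted p = 0.0475), and the block changed no other call. By their correlations, 1 of 12 arrays was nearest to an array of its own number. The stricter filter left no Cxcr2 value, and leaving out shared probe sets left no Ccrl2 value. The dim probe sets of Cx3cr1 and Cxcr2 limit what can be said of these genes.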
